A study of Mus musculus with 2 samples.

Results

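Arg1, Nos2, Ass1, Ido1, Il4i1 and Kmo encode 6 enzymes that consume, make or break down arginine and tryptophan, and they were taken by symbol as 6 of the 27998 genes in the feature table of 2 single-cell RNA libraries. Each library holds CD45+ cells sorted from subcutaneous B16F10 melanomas, a mouse tumor line, on day 14 in C57BL/6 hosts, with 4 tumors pooled per group. The control hosts were Usp18f/f, which carry floxed Usp18 alleles and no Cre. The other hosts were Usp18f/f LysM-Cre, so both groups share the floxed alleles, and Cre is expressed from the Lyz2 locus in monocytes, macrophages and neutrophils and not in lymphocytes. Each group is 1 library of pooled animals, so every difference given here lies between 2 pools, has no replicate check and carries no test. All intervals are 95% intervals that cover counting error only.

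Arginase 1 (Arg1) splits arginine into ornithine and urea, and inducible nitric oxide synthase (Nos2) turns the same arginine into nitric oxide and citrulline. Argininosuccinate synthetase (Ass1) takes citrulline back towards arginine. Indoleamine 2,3-dioxygenase (Ido1) opens the tryptophan ring to start the kynurenine pathway, kynurenine 3-monooxygenase (Kmo) works further down that pathway, and Il4i1 is a secreted oxidase of aromatic amino acids, tryptophan included. In tumors Arg1, Nos2, Ido1 and Il4i1 are known for limiting T cells. Myeloid cells that use up arginine or tryptophan, or release kynurenines, slow T-cell growth.

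The library labelled knockout went against its label for Usp18. Among cells gated as monocytes, Usp18 stood at 21.3 CPM (UMIs of a gene per 1000000 UMIs of the class) in control and 145.8 in the other library, and in macrophages at 17.2 and 61.0. Lyz2, whose locus carries Cre, went with the label, at 13074 and 28.2 CPM in monocytes. Whether the 3′ tags of Usp18 lie inside the deleted part is not given in the sources used here, so the second library is called the library labelled knockout. The deposited tables held 7754 and 6063 barcodes with a median of 2600 and 4455 UMIs, of which 6657 and 5451 were kept. The labels do not give the sex of the hosts, and the pools differed in it. Of the cells with sex-linked transcripts of 1 kind only, 36.5% held Xist in control and 86.1% in the library labelled knockout, the rest holding Y-linked UMIs.

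Cells were gated by marker genes, none of them a member. Control and the library labelled knockout held 728 and 1099 macrophages, 787 and 1155 monocytes, 147 and 113 type 1 conventional dendritic cells (cDC1), 302 and 209 cDC2, and 121 and 122 migratory dendritic cells (migratory DC). Of the markers that set the gates, C1qb was found in 90.8% and 92.2% of macrophages, Ccr2 in 91.9% and 92.1% of monocytes, Clec9a in 85.7% and 87.6% of cDC1, Cd209a in 74.2% and 79.4% of cDC2 and Ccr7 in 97.5% and 95.1% of migratory DC. Some markers were found in fewer cells, such as Flt3 in 42.1% and 35.9% of cDC2 and Apol7c in 15.7% and 18.0% of migratory DC. Among macrophage markers Adgre1 was in 87.0% and 80.4% of macrophages and Ms4a7 in 78.6% and 86.0%. Other monocyte markers differed between the libraries, with Ly6c2 in 50.8% and 82.2% of monocytes, Plac8 in 83.0% and 93.8%, Fn1 in 89.8% and 77.0% and F13a1 in 83.7% and 73.3%, so the cells compared as monocytes were not alike in them. The part of this in the results on monocytes was not tested. Macrophages and monocytes each held some markers of the other, and whether they form 1 continuous range was not tested. Summed monocyte markers had a median of 8.44 and 8.76 UMIs per 10000 in macrophages, against 155 and 164 for their own markers, and summed macrophage markers had a median of 15.1 and 18.6 in monocytes, against 100.5 and 114.6. Close to a class boundary lay 32 and 44 macrophages and 35 and 55 monocytes. T, NK, B and melanoma markers each had a median of 0 in the 5 classes. Myeloid barcodes with lymphocyte markers (66 and 168, or 0.991% and 3.08%) and ungated barcodes (813 and 533) are outside the classes. The libraries shared 8 barcodes, and none of them fell in the 5 classes in both.

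Of the 6 genes, 3 had a promoter sequence in the RefSeq table of GRCm38.p6, matched by symbol: Ass1, Il4i1 and Kmo. They are shown because the dendritic-cell results below turn on these 3 genes, each with the 250 bases before its RefSeq start on the plus strand. Capitals mark GGAA, the core of sites for ETS factors such as PU.1, on either strand.
Ass1, chr2:31470020-31470269: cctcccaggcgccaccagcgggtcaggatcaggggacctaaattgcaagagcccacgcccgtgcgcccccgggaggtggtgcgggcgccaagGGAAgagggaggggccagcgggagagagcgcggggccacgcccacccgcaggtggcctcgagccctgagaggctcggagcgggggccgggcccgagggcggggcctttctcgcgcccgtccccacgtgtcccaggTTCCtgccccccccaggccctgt
Il4i1, chr7:44836038-44836287: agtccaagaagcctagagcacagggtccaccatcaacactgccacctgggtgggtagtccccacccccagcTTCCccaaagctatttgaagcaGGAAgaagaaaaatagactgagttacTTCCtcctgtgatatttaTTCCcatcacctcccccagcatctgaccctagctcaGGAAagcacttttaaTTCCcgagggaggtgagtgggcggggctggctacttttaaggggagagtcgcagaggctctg
Kmo, chr1:175631943-175632192: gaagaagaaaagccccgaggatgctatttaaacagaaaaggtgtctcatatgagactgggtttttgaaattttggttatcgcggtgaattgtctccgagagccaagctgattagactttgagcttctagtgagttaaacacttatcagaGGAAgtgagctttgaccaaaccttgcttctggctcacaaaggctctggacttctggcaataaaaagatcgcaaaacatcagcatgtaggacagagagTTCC
GGAA occurred 2 times in Ass1, 6 times in Il4i1 and 2 times in Kmo. It is a short motif that 93.4% of the 32851 RefSeq promoters of the same length hold. The E-box CACGTG occurred 1 time in Ass1 and is found in 6.02% of promoters. The interferon response core, GAAA and GAAA with any 2 bases between (2.98% of promoters), the GAS element TTCNNNGAA (7.02%), the NF-kB site, GGGA and TTTCC with any base between (0.356%), and the TATA box TATAAA (12.4%), searched on both strands, were not in these 3 windows. Motif matches and their absence describe the letters only. All 3 windows end at starts that lie inside the GENCODE M21 gene of that name.

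**Figure D1:**
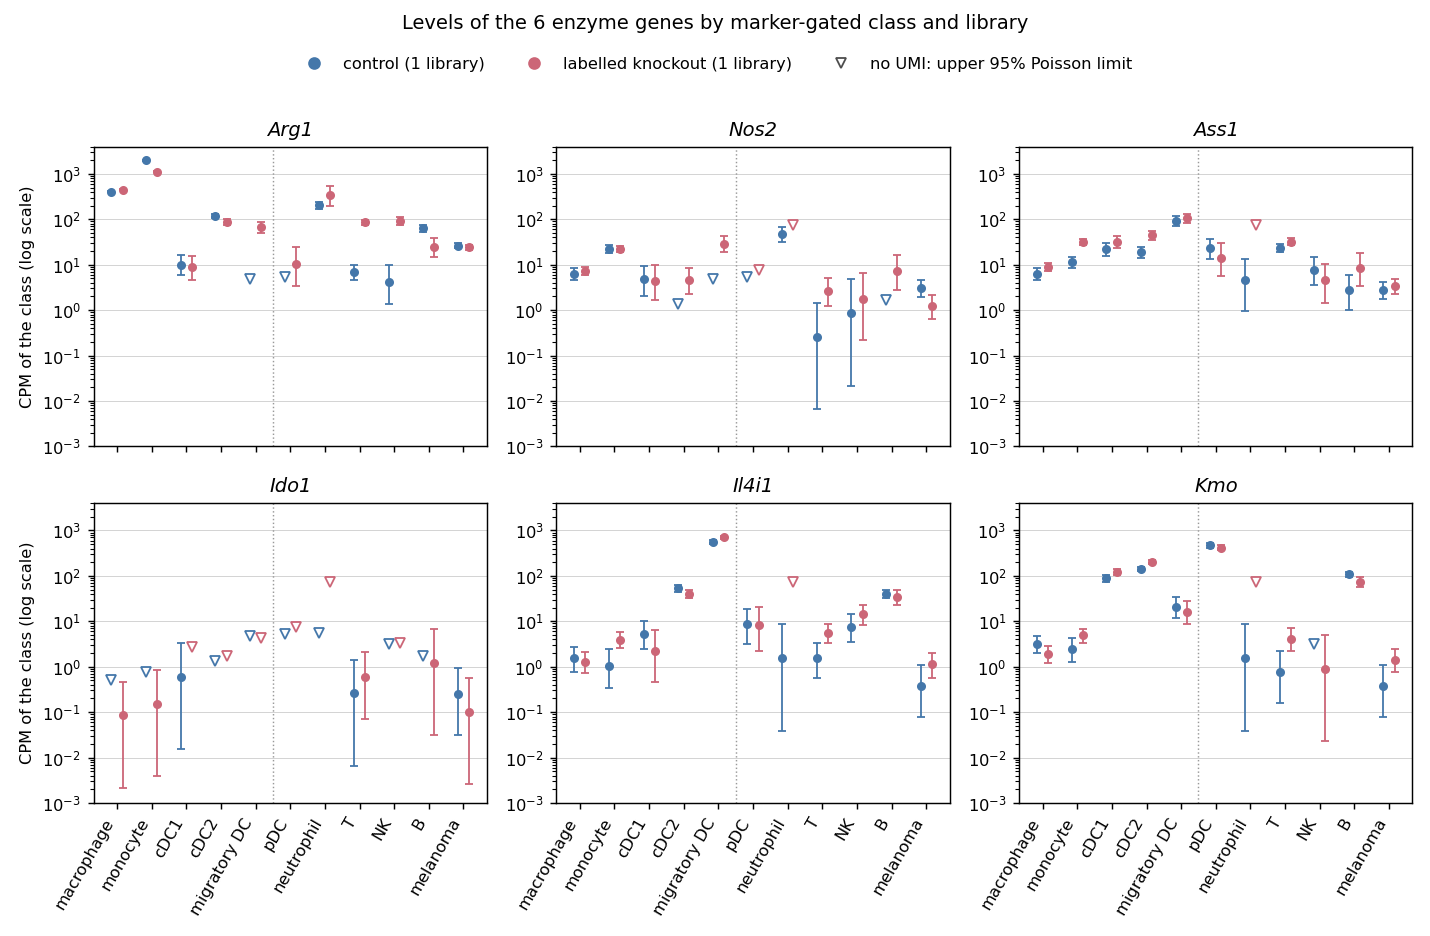
CPM of each gene (vertical, log scale) in 5 myeloid classes and, right of the dotted line, 6 comparison classes, in control (blue) and in the library labelled knockout (red). Points are 1 library each, bars are exact 95% Poisson intervals, and open triangles are upper limits where no UMI was found. Arg1 is highest in monocytes (1989.8 and 1129 CPM), Il4i1 in migratory DC (563 and 706 CPM) and Kmo in plasmacytoid dendritic cells (pDC, 467 and 418 CPM), while Ido1 has no point above 1.23 CPM.

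In both libraries Arg1 was highest in monocytes, Ass1 and Il4i1 in migratory DC and Kmo in pDC, followed by cDC2. Nos2 was highest in neutrophils in control and in migratory DC, from 3 cells, in the other library, with monocytes next in both. Over all kept cells Arg1 had 14466 and 15334 UMIs, Nos2 270 and 388, Ass1 446 and 861, Ido1 4 and 8, Il4i1 853 and 1049, and Kmo 1261 and 1158. Since 3′ tags count transcripts with unequal efficiency, levels are compared within a gene and not between genes.

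Arg1 (ENSMUSG00000019987, chr10:24915221-24927484, minus strand, GRCm38) was the member with the widest range among classes. In monocytes it stood at 1989.8 CPM (1950.0 to 2030.1, 9534 UMIs) in control and 1129 CPM (1103 to 1155, 7410 UMIs) in the library labelled knockout. In macrophages it stood at 409 CPM (394 to 424) and 448 CPM (436 to 460). Among the 5 classes the order monocyte, macrophage, cDC2 held in both libraries, with cDC2 at 116.8 and 86.3 CPM. cDC1 stood at 10.1 and 8.91 CPM, and none of these neighbours had overlapping counting intervals. Neutrophils, a comparison class, lay above cDC2 in both libraries, at 205.5 CPM (172 to 243, 134 UMIs) in control. In the other library they stood at 344 CPM (200 to 551, 17 UMIs), with an interval overlapping that of macrophages. A single neutrophil held 76.5% of these 17 UMIs. In cDC2 a single cell held 45.1% and 27.2% of the Arg1 UMIs, and without it the log2 ratio of CPM + 5 between the libraries was -0.024, against -0.42. Among migratory DC no control cell held an Arg1 UMI (121 cells, upper limit 4.74 CPM), and 6 of 122 cells in the other library held 57 UMIs. Of all Arg1 UMIs monocytes held 65.9% in control and 48.3% in the other library, and macrophages 20.5% and 34.6%.

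The lower Arg1 level of monocytes in the library labelled knockout went with fewer UMIs per positive cell and not with a smaller share of positive cells. At full depth 27.4% of control monocytes and 33.8% of the others held at least 1 Arg1 UMI. After each cell was thinned to 2000 UMIs the shares were 180 of 766 (23.5%, 20.5 to 26.7) and 270 of 1042 (25.9%, 23.3 to 28.7), a difference of 2.41 percentage points (-1.64 to 6.38) whose interval spans 0. What differed was the number of UMIs in a positive cell, 44.1 in control and 19.0 in the library labelled knockout. In macrophages the thinned share was 14.0% (11.5 to 16.8) and 20.3% (17.8 to 23.0), with 20.5% and 27.9% at full depth, while a positive macrophage held 19.9 and 17.3 UMIs. B cells, which should lack Arg1, held it in 0.519% and 0.946% of cells at a median depth of 1509 and 1785 UMIs, against 5746 and 5373 in monocytes and 8851 and 9123 in macrophages. In thinned B cells the shares were 2.37% of 169 cells and 0.787% of 127.

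Arg1 UMIs were concentrated in few cells of each class, and the typical positive monocyte also held fewer of them in the library labelled knockout. The median Arg1-positive monocyte held 54.4 Arg1 UMIs per 10000 in control and 14.7 in the other library, while the median positive macrophage held 7.78 and 8.59. In control 73 of 787 monocytes (9.28%) held 50 or more Arg1 UMIs, and these cells had 73.8% of all Arg1 UMIs of the class. In the library labelled knockout 39 of 1155 (3.38%) did, with 49.7% of the UMIs. The limit of 50 UMIs is set on Arg1 itself, so these shares describe the spread and test nothing. The Arg1 UMIs reached 50% of the class total within 38 control monocytes and 40 monocytes of the other library. Macrophages held 16 and 25 such cells, 2.20% and 2.27% of the class, with 53.5% and 45.4% of the UMIs. The single highest cell held 215 and 270 UMIs in monocytes and 195 and 292 in macrophages. These were 2.26%, 3.64%, 6.57% and 5.50% of the class total, so no single cell set the level of a whole class.

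**Figure D2:**
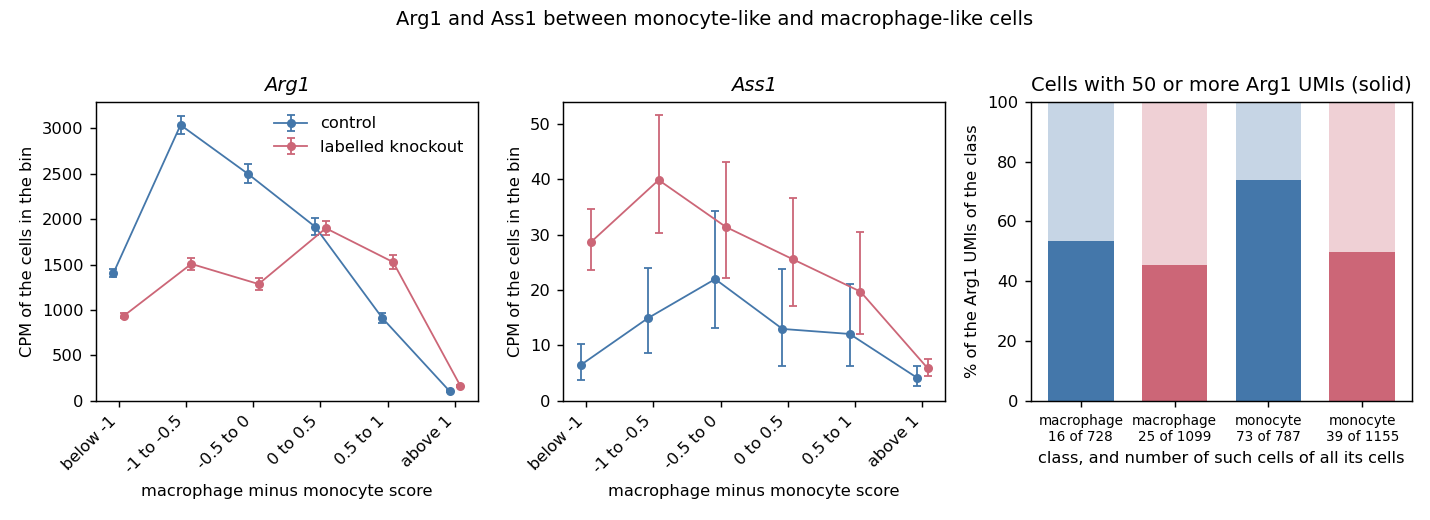
Left and middle, CPM of Arg1 and Ass1 in monocytes and macrophages of both libraries (control blue, labelled knockout red) in 6 bins of the macrophage minus monocyte marker score, with exact 95% Poisson intervals. Right, the share of the Arg1 UMIs of each class that lies in cells with 50 or more of them (solid). Arg1 peaks between the ends of the score, at 3038 CPM in control and 1901 CPM in the other library. The solid part is 73.8% in control monocytes and 49.7% in those of the other library.

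Arg1 was highest between the monocyte and macrophage ends of the marker score, and the peak lay further towards macrophages in the library labelled knockout. The 6 bins of the marker score, from the most monocyte-like cells to the most macrophage-like, stood at 1403, 3038, 2501, 1918, 912 and 107 CPM in control. In the library labelled knockout the same bins stood at 938, 1508, 1287, 1901, 1528 and 165 CPM. Control was higher in the 3 bins of the monocyte side, the fourth bin had overlapping intervals, and the library labelled knockout was higher in the last 2. The share of cells with an Arg1 UMI followed another course. It was below 20% at both ends in control (18.6% and 13.2%) and between 31.8% and 45.5% in the 4 middle bins, and in the other library it was 27.0% and 19.6% at the ends and between 44.8% and 51.9% in the middle.

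Clustering without the members placed most Arg1 in 1 group of cells. Cluster 1, named after monocyte markers, held 533 control cells and 979 cells of the other library, and 92.5% and 89.1% of all Arg1 UMIs, at 3779 and 1941 CPM. Its leading genes by fold over other cells were, beside Arg1, the chemokines Ppbp, Ccl24 and Cxcl3, the matrix genes Spp1, Thbs1 and Fn1, Hbb-bs (haemoglobin), the interferon-induced Rsad2 and the activin subunit Inhba. Within the monocyte class its cells stood at 4742 and 2135 CPM, while the other large monocyte cluster, cluster 3, stood at 36.2 and 33.5 CPM. Within the macrophage class the cells of cluster 1 were also lower in the library labelled knockout, at 2400 and 1874 CPM. The other large macrophage clusters, 2 and 12, stood at 87.4 and 92.6 CPM and at 16.5 and 64.6 CPM. Cluster 1 held 39.4% and 46.8% of the monocytes and 17.6% and 25.0% of the macrophages. The part of this make-up in the Arg1 levels of the classes was not tested. Of the monocytes with 50 or more Arg1 UMIs 97.3% in control and all in the other library were in it.

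**Figure D3:**
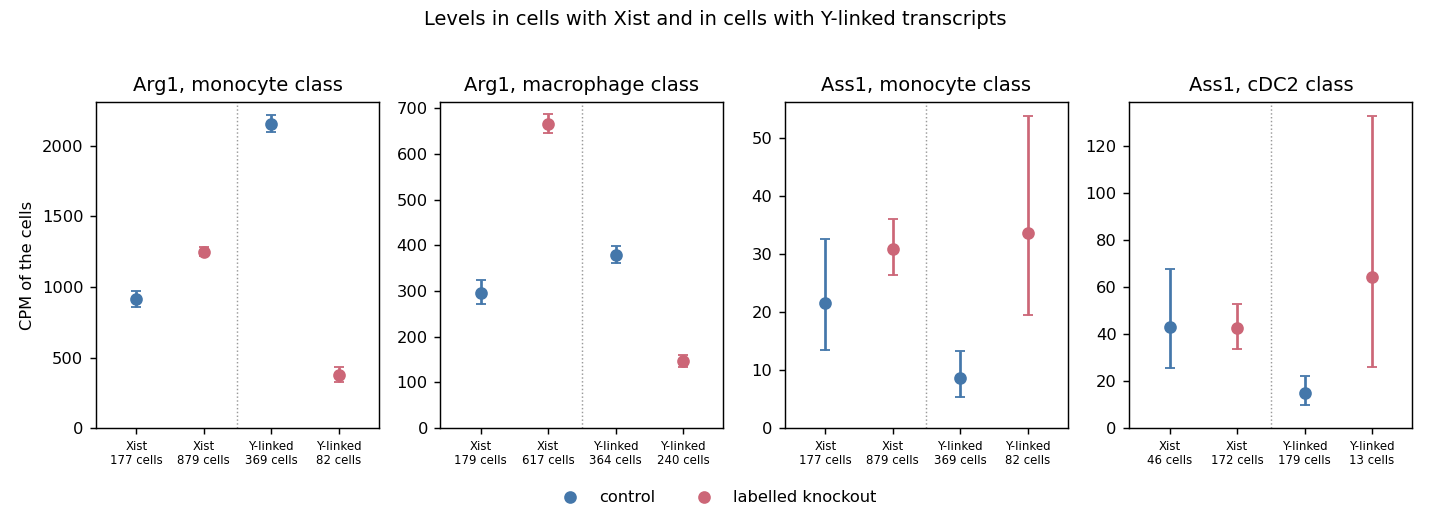
CPM of Arg1 and Ass1 in cells with Xist and no Y-linked UMI and in cells with a Y-linked UMI and no Xist, for control (blue) and the library labelled knockout (red), with exact 95% Poisson intervals. Each panel has its own axis from 0, and cell numbers stand below the points. Arg1 in monocytes stands at 914 and 1251 CPM in Xist cells but at 2157 and 379 CPM in Y-linked cells. The last value has 42.2% of its UMIs in 1 cell.

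The library difference in Arg1 took opposite signs in cells of each sex. Monocytes with Xist stood at 914 CPM (856 to 975, 177 cells) in control and 1251 CPM (1221 to 1282, 879 cells) in the other library. Monocytes with Y-linked UMIs stood at 2157 CPM (2099 to 2217, 369 cells) and 379 CPM (327 to 437, 82 cells). A single cell held 42.2% of the 192 UMIs behind the last value, a spread that its counting interval leaves out. In macrophages the Xist cells stood at 296 and 666 CPM and the Y-linked cells at 379 and 146 CPM, the last with 29.5% of its UMIs in 1 cell. The thinned shares of Arg1-positive monocytes went the same way, 10.9% and 28.5% with Xist, and 26.0% and 5.0% with Y-linked UMIs. Of the 73 Arg1-high control monocytes 40 held Y-linked UMIs and 6 held Xist, and of the 39 in the other library 31 held Xist and 3 Y-linked UMIs. The share of monocytes that lay in cluster 1 moved with it, at 29.9% and 52.3% of Xist cells and 39.6% and 15.9% of Y-linked cells. The part of host sex, or of single animals of 1 sex in a pool of 4, in the library difference was not tested. In macrophages the direction also turned when barcodes over 5% mitochondrial UMIs were left out, to a log2 ratio of -0.23 from 0.13.

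Arg1 UMIs outside monocytes and macrophages lay in few cells, and in the dendritic and B-cell classes and in T and NK cells of the library labelled knockout these cells held more macrophage and monocyte markers than the rest. The 14 and 16 positive cDC2 had a median of 48.7 and 54.1 macrophage and monocyte marker UMIs per 10000, against 16.2 and 22.8 in the cDC2 without Arg1. For the 6 migratory DC of the library labelled knockout the medians were 59.5 and 2.0, and for its 31 positive T cells 36.8 and 9.55. Control T cells differed little (16 positive cells, 6.30 and 4.43), and the 5 positive control NK cells held fewer of these markers than the others (8.08 and 9.56). B cells stood at 64.0 and 24.7 CPM, with 66.9% and 80.0% of the UMIs in a single cell. Neutrophils held Arg1 in 8 and 4 cells, for which these markers were not compared. The part of cells captured together in these values was not tested.

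Nos2 (ENSMUSG00000020826, chr11:78920787-78960254, plus strand) was sparse, and its level in monocytes and in macrophages had overlapping intervals between the libraries. Monocytes stood at 22.1 CPM in both (18.1 to 26.8 from 106 UMIs, and 18.6 to 26.0 from 145 UMIs), a ratio of 0.999 (0.772 to 1.30). Macrophages stood at 6.33 CPM (4.64 to 8.45) and 7.34 CPM (5.88 to 9.05). Over all kept cells the ratio was 1.24 (1.06 to 1.45). Of these cells macrophages made up 10.9% in control and 20.2% in the other library, and monocytes 11.8% and 21.2%. Migratory DC held 25 of the 388 Nos2 UMIs of the library labelled knockout and none in control. The part of this make-up in the ratio over all cells was not tested. Control neutrophils, whose class held 439 control cells and 25 of the other library, stood at 47.5 CPM (32.3 to 67.5), and the 25 cells of the other library held no Nos2 UMI, which allows up to 74.6 CPM. cDC1 held Nos2 in 1 cell of each library. After thinning 3.0% of control monocytes and 2.59% of the others were Nos2-positive, against 1.44% and 1.48% of macrophages and 0 of 169 and 1 of 127 B cells. At full depth the monocyte shares were 4.07% and 4.16%. The 82 monocytes with Y-linked UMIs in the library labelled knockout held no Nos2 UMI (up to 7.28 CPM), while the other 3 sets of monocytes split by sex stood between 20.6 and 24.8 CPM.

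Most Nos2-positive monocytes and macrophages also held Arg1 at full depth, although both enzymes compete for arginine and are textbook marks of opposite macrophage states. At full depth 30 of 32 Nos2-positive control monocytes (93.8%) held Arg1, against 24.6% of the Nos2-negative ones, and in the library labelled knockout 40 of 48 (83.3%) did, against 31.6%. In macrophages 19 of 22 (86.4%) and 23 of 37 (62.2%) did, against 18.4% and 26.7%. After thinning 23 of 23 control Nos2-positive monocytes held Arg1, where the product of the 2 shares gives 5.40 cells, and 14 of 27 did in the other library, where the product gives 7.0. Of thinned Nos2-positive macrophages 7 of 10 held Arg1 in control, against a product of 1.40. In the other library 6 of 14 (42.9%) did, against 2.84. Both genes lay mostly in cluster 1, which held 71.5% and 79.4% of Nos2 UMIs. Within cluster 1 the thinned count was 38 against a product of 23.3 in control, 1.63 times, and 29 against 26.4 in the library labelled knockout, 1.10 times.

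**Figure D4:**
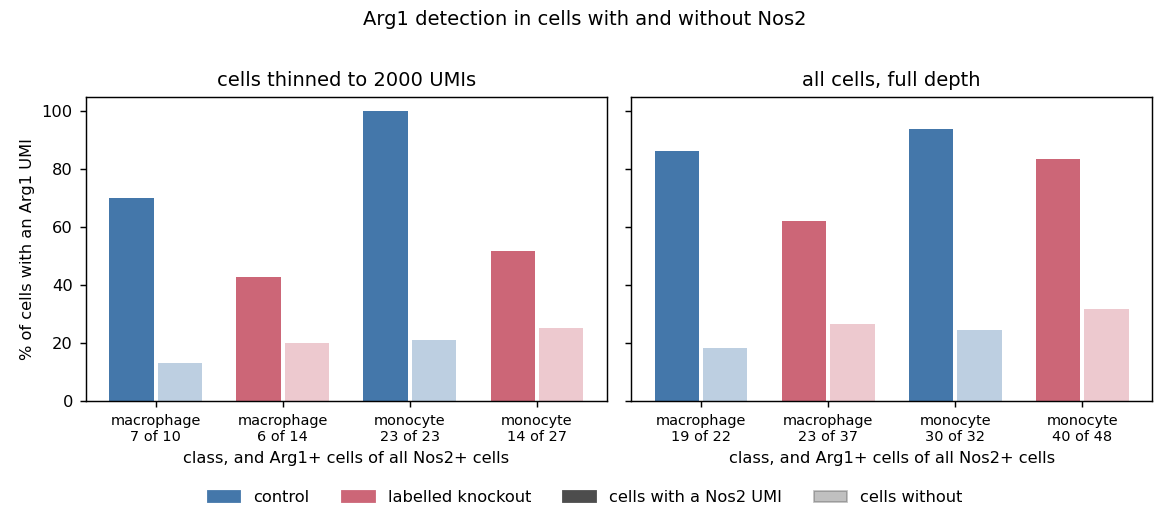
Share of cells with an Arg1 UMI (vertical, percent) among cells with a Nos2 UMI (dark) and without (pale), in macrophages and monocytes of control (blue) and the library labelled knockout (red), after thinning to 2000 UMIs (left) and at full depth (right). Numbers below the bars count Arg1-positive among Nos2-positive cells. In each of the 8 pairs of bars the dark bar is the taller, from 42.9% against 19.9% in thinned macrophages of the library labelled knockout to 100% against 21.1% in thinned control monocytes.

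Nos2 levels differed between strata of Arg1, and not in the same order in the 2 libraries. Control monocytes with 0, 1 to 9, 10 to 49 and 50 or more Arg1 UMIs had 0.878, 5.85, 59.0 and 138 CPM of Nos2, with 3, 2, 31 and 70 UMIs. In the library labelled knockout the same strata had 5.44, 51.0, 56.2 and 23.9 CPM, with 22, 63, 51 and 9 UMIs. The highest Arg1 stratum thus held the most Nos2 in control and not in the library labelled knockout, where only 2 of its 39 cells held Nos2. In macrophages the highest stratum had the most in both libraries, 61.4 CPM and 88.4 CPM. Median depth in monocytes was 5655 UMIs in the lowest stratum and 6549 in the highest in control, and 5223 and 7981 in the other library, and its part in these levels was not tested. Nos2-positive control monocytes stood at 10881 CPM of Arg1 and Nos2-negative ones at 1605 CPM, against 2691 and 1052 CPM in the library labelled knockout.

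Ass1 (ENSMUSG00000076441, chr2:31470207-31520672, plus strand), whose promoter is shown above, was higher in monocytes and cDC2 of the library labelled knockout. Monocytes stood at 11.3 CPM (8.47 to 14.7, 54 UMIs) in control and 31.7 CPM (27.5 to 36.3, 208 UMIs) in the other library, a ratio of 2.81 (2.08 to 3.87). In cDC2 the values were 18.9 CPM (14.1 to 24.9) and 44.1 CPM (35.6 to 53.9), a ratio of 2.33 (1.64 to 3.34). Macrophages stood at 6.20 and 8.94 CPM, cDC1 at 22.0 and 31.9 CPM and migratory DC, the highest class, at 92.5 and 104.6 CPM. The ratios of these 3 were 1.44 (1.01 to 2.09), 1.45 (0.915 to 2.32) and 1.13 (0.820 to 1.56). T cells also held Ass1, at 23.1 and 32.3 CPM.

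Ass1 was spread over many cells with 1 or 2 UMIs each, unlike Arg1. In thinned monocytes 13 of 766 (1.70%, 0.907 to 2.88) and 56 of 1042 (5.37%, 4.08 to 6.92) held it, a difference of 3.68 percentage points (1.98 to 5.37), and at full depth 5.72% and 13.6% did. B cells held it in 1 of 169 and 3 of 127 thinned cells and in 0.444% and 1.65% at full depth. The monocyte with the most held 4 UMIs in each library, and over all kept cells the highest held 8 and 11. Thinned cDC2 were positive in 4.00% and 9.27%, thinned cDC1 in 1.38% and 7.21%, and thinned migratory DC in 18.4% and 18.0%. The difference was seen in both large monocyte clusters, at 11.8 and 30.3 CPM in cluster 1 and 10.8 and 31.7 CPM in cluster 3. Along the marker score the values were 6.46 and 28.7 CPM at the monocyte end, 14.9 and 39.9 CPM in the next bin, and 4.18 and 5.87 CPM at the macrophage end.

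The Ass1 difference also varied with sex-linked transcripts, without turning over in monocytes. Monocytes with Xist stood at 21.6 CPM (13.5 to 32.6, 22 UMIs) and 30.9 CPM (26.3 to 36.0), which overlap, and those with Y-linked UMIs at 8.71 CPM (5.39 to 13.3, 21 UMIs) and 33.6 CPM (19.6 to 53.7, 17 UMIs), which do not. In cDC2 the Xist cells stood at 42.9 and 42.3 CPM and the Y-linked cells at 15.02 and 64.3 CPM, the last from 7 UMIs in 13 cells. In both classes the lowest value was thus that of control cells with Y-linked UMIs. Macrophages with Y-linked UMIs went the other way, at 6.28 CPM (4.10 to 9.20) and 3.51 CPM (1.75 to 6.29), and those with Xist stood at 7.77 and 10.7 CPM. The part of host sex in these values was not tested.

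Ido1 (ENSMUSG00000031551, chr8:24584136-24597009, minus strand) was close to absent. The 11 classes held 10 of its UMIs, with no cell above 1 UMI. In macrophages 0 of 728 control cells and 1 of 1099 cells of the other library held it, at most 0.508 CPM for the first. Monocytes had 0 and 1 UMI, cDC1 had 1 and 0, and cDC2 and migratory DC had none in either library. In migratory DC a count of 0 allows up to 4.74 and 4.29 CPM, and in thinned cells the share that 3 cells would give is 2.63% of 114 and 2.70% of 111. Its paralog Ido2 had 2 and 1 UMIs in migratory DC and 1 in macrophages of the library labelled knockout. No ratio between the libraries is given for Ido1.

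Il4i1 (ENSMUSG00000074141, chr7:44816387-44840809, plus strand) was the enzyme of migratory DC. In that class it stood at 563 CPM (511 to 618, 438 UMIs) in control and 706 CPM (651 to 764, 607 UMIs) in the other library, a ratio of 1.25 (1.11 to 1.42). The class held 51.3% and 57.9% of all Il4i1 UMIs of the libraries while being 1.82% and 2.24% of kept cells. Of its cells 72.7% and 80.3% were positive at full depth, and 47.4% (37.9 to 56.9) and 64.0% (54.3 to 72.9) after thinning. T cells, which held Il4i1 in 0.345% and 0.749% of cells at median depths of 2509 and 2954 UMIs, serve as the class without the gene. cDC2 stood at 53.4 and 40.3 CPM and B cells at 40.1 and 34.5 CPM, with overlapping intervals between cDC2 and B cells in each library. cDC1, macrophages and monocytes stood at or below 5.34 CPM.

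Within cells of 1 sex kind the Il4i1 levels of migratory DC had overlapping intervals between the libraries. The difference over the whole class turned over when the class was formed another way. Cells with Xist stood at 765 CPM (593 to 972, 17 cells) and 796 CPM (726 to 870, 84 cells). Those with Y-linked UMIs stood at 540 CPM (477 to 608, 67 cells) and 514 CPM (400 to 650, 17 cells). Each kind had only 17 cells in 1 of the libraries, so the overlap does not show that the levels were equal. The part of host sex in the difference over the whole class was not tested. Where classes came from clustering the log2 ratio was -0.091, against 0.32. The myeloid barcodes with lymphocyte markers, left out of the classes, held 7.27% and 15.3% of Il4i1 UMIs. Il4i1 overlaps Nup62 on its own strand, and Tbc1d17 and Atf5 on the other. Nup62 stood between 27.3 and 44.9 CPM in all 5 classes of both libraries, also where Il4i1 was at 1.04 CPM (control monocytes), and in migratory DC at 38.6 and 44.2 CPM.

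Kmo (ENSMUSG00000039783, chr1:175620381-175662116, plus strand) was a gene of cDC1, cDC2, pDC and B cells and not of macrophages or monocytes. In cDC2 it stood at 142 CPM (128 to 157, 383 UMIs) and 199 CPM (180.3 to 219, 424 UMIs), a ratio of 1.40 (1.22 to 1.61). In cDC1 it stood at 88.4 CPM (74.8 to 103.8) and 124.7 CPM (106.6 to 145), a ratio of 1.41 (1.12 to 1.77). pDC held the most, 467 CPM (417 to 520.2) and 418 CPM (362 to 479), and B cells held 108 and 74.0 CPM. Migratory DC stood at 20.6 and 16.3 CPM, and macrophages and monocytes between 1.94 and 4.88 CPM. Positive cDC2 made up 22.7% (18.1 to 27.8) and 34.6% (28.1 to 41.6) after thinning and 55.6% and 72.7% at full depth. cDC1 were positive in 19.3% and 20.7% after thinning. NK cells, at median depths of 2246 and 2786.5 UMIs, held Kmo in 0 of 422 and 1 of 296 cells.

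By sex kind, Kmo in cDC2 stood at 179 and 203 CPM with Xist and at 122 and 321 CPM with Y-linked UMIs, the last from 13 cells. The Xist values have overlapping intervals (141 to 224, and 182.7 to 225). Kmo overlaps Fh1 on the opposite strand, and whether counting used the strand is not given in the sources used here. Fh1 stood at 115 and 139 CPM in cDC2, and at 29.3 and 34.4 CPM in T cells, where Kmo stood at 0.771 and 4.15 CPM.

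After thinning, few cells held UMIs of more than 1 member. In thinned cells 3.52% and 3.17% of monocytes, 1.44% and 1.06% of macrophages, 1.38% and 2.70% of cDC1, 4.00% and 9.27% of cDC2 and 11.4% and 16.2% of migratory DC held 2 or more. These shares depend on depth. At full depth Ass1 and Il4i1 met in 26 of 121 and 35 of 122 migratory DC, and Ass1 and Kmo in 28 of 302 and 48 of 209 cDC2. In monocytes the most frequent pair at full depth was in 30 of 787 control cells (Arg1 with Nos2). In the other library it was in 61 of 1155 (Arg1 with Ass1). Of the 15 pairs, Arg1 with Nos2 gave most double-positive monocytes in control (23), while Arg1 with Ass1 (20 against a product of 14.5) gave most in the library labelled knockout. In control monocytes Arg1 and Ass1 met in 2 thinned cells against a product of 3.05. Il4i1 and Ass1 met in 12 and 14 thinned migratory DC against products of 9.95 and 12.8, and Il4i1 and Kmo in 6 and 6 thinned cDC2 against 4.76 and 2.77. Ass1 and Kmo met in 3 thinned control cDC2 against a product of 2.72 and in 11 against 6.58 in the other library, where at full depth they met in 48 against 47.3. Ass1 met argininosuccinate lyase (Asl), the next enzyme of the same route, in 5 thinned control monocytes against a product of 1.02 and in 11 against 4.78 in the other library.

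To set the members against all genes, log2 ratios of CPM + 5 were taken for each gene with at least 20 UMIs in a class, and a ratio of 1 or more in size was counted. In monocytes 1 of the 5 members tested passed, Ass1 with 1.17, where 1.84% of 10036 genes were higher and 0.279% lower. In cDC2 it was 1 of 4, again Ass1 with 1.04, where 1.02% of 9403 genes were higher and 0.404% lower. Among migratory DC, where 3.98% of 6429 genes were higher and 1.23% lower, none of the 3 members with UMIs in both libraries passed. Arg1 (3.83) and Nos2 (2.77) met the minimum of 20 UMIs only through the library labelled knockout, so they are given as values and not counted, and with a minimum of 100 UMIs neither is measured. No member passed in macrophages (5 tested, 0.563% of 11006 genes higher and 0.127% lower) or cDC1 (3 tested, 0.740% of 8376 genes higher and 0.549% lower). Control migratory DC held no UMI of either gene, so these 2 values depend on the 5 CPM added. The lower ends of the exact intervals of their ratios were 13.5 and 5.69, from 57 UMIs in 6 cells and 25 UMIs in 3 cells, 1 of which held 15 of the Nos2 UMIs. The median of the members tested was 0.12 in macrophages, 0.40 in monocytes, 0.45 in cDC1 and 0.05 in cDC2. That of all genes lay between -0.05 and 0.03. For migratory DC no member median is given, because Arg1 and Nos2 met the minimum there only through the library labelled knockout.

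Few other genes of arginine and tryptophan metabolism differed by the size counted. Of 57 genes in 5 lists, none passed that size in macrophages, monocytes, cDC1 or cDC2. In migratory DC the amino acid transporter genes Slc7a7 (log2 ratio 1.18, 6.43 and 20.9 CPM) and Slc7a8 (1.48, 3.86 and 19.8 CPM) did, the first from 5 and 18 UMIs and the second from 3 and 17. For the 24 arginine genes, which cover arginase 2, polyamine synthesis and transport, 12 to 18 were tested in a class and the medians lay between -0.01 and 0.35. For the 14 tryptophan and kynurenine genes 3 to 6 were tested, with medians from -0.32 in monocytes to 0.52 in migratory DC. The aryl hydrocarbon receptor list, a sensor of kynurenines and its targets, had medians from -0.20 to 0.26, and the amino acid starvation list from -0.16 to 0.13. The 5 genes of tetrahydrobiopterin, the cofactor that Nos2 needs, had medians from -0.06 to 0.32. Among them Gch1, the first enzyme of that synthesis, was higher in the library labelled knockout in all 5 classes, with log2 ratios of 0.45 to 0.90. It stood at 57.2 CPM (50.6 to 64.4) and 110.8 CPM (102.8 to 119) in monocytes, and in cDC1 and migratory DC the ratio's interval includes 1. The rest of that list did not follow Gch1 in monocytes. There Pts was lower, at 38.2 and 27.3 CPM (ratio 0.714, 0.578 to 0.882), and the intervals of Spr and Qdpr include 1. Below the size counted, but with intervals of the ratio that leave out 1, were further genes, of which 6 are described here. Others with such intervals included Gatm, Prmt1 and Slc3a2 in macrophages, Amd1 in monocytes and Sat1 in migratory DC. The share of all genes with such intervals was not counted, so none of these genes is shown to stand out. Trib3, a stress-induced pseudokinase, had 33 and 8 UMIs in monocytes (ratio 0.177, 0.0706 to 0.391), and Asns, asparagine synthetase, 28 and 15 (0.391, 0.194 to 0.758). Ddit3, a stress-induced transcription factor, stood at 24.9 and 47.0 CPM in macrophages (1.89, 1.59 to 2.24), and Ahr, the receptor itself, at 27.8 and 15.8 CPM (0.567, 0.462 to 0.695). Odc1, which makes polyamines from ornithine, stood at 89.4 and 151 CPM in cDC2 (1.69, 1.43 to 2.01), and Tiparp at 24.4 and 53.5 CPM in migratory DC (2.19, 1.26 to 3.96). Gch1, these 6 genes and the others with such intervals were named after their values were seen.

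The genes whose levels ran most like each member over the 22 points of 11 classes in 2 libraries are given by Pearson r of log2(CPM + 5), as a description without a test, since the points share libraries. For Arg1 they were Ccl7 (0.92), Thbs1 (0.91), Msr1 (0.90), Ccl2 (0.89) and Fn1 (0.89), the last a gating marker of monocytes. For Nos2 they were Gpr84 (0.90), Olr1 (0.88), Rnd1, Ankrd66 and Piwil2, each with at most 329 UMIs over the points. For Ass1 they were the proteasome activator genes Psme2 (0.88) and Psme1 (0.83) with Vdr, Ncoa7 and Ptger4. For Il4i1 they were Tmem123 (0.91), Ccl22 (0.89, a gating marker of migratory DC), Relb, H2-Eb2 and Cd1d1. For Kmo they were Bcl11a (0.94), Igsf9, Rnase6, H2-Oa and Kynu (0.87), the last the kynureninase that acts beside Kmo in the kynurenine pathway. Among the members themselves Il4i1 and Ass1 had the highest r (0.65), followed by Arg1 and Nos2 (0.57), and Kmo and Arg1 the lowest (-0.42).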

How the data were processed

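Single-cell RNA was measured in 1 library per group. The authors deposited tables of UMI counts that were not normalized, made with Cell Ranger 3.0.1 and mm10, per the submitters' processing notes. Barcodes needed 200 genes or more and could hold up to 10% of mitochondrial UMIs, and doublets were removed with Scrublet in each library at 0.8% per 1000 barcodes. Each barcode was given the class with the highest mean of standardized marker levels, if it held at least 3 of them (2 for lists shorter than 6). Myeloid barcodes with 2 or more markers of T, NK or B cells were set aside as mixed. These limits were set after the spread of marker UMIs was seen. UMIs were summed per library and class, as CPM with exact Poisson intervals. Ratios carry exact conditional intervals, shares exact Clopper-Pearson intervals after thinning to 2000 UMIs, and differences of shares Newcombe intervals. Summed depth per class ran from 778053 to 11853805 UMIs in the 5 classes of the report.

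Clustering of both libraries (2000 variable genes, 30 components, 15 neighbours, Leiden resolution 1) left out the members, the pathway lists and interferon, sex-linked, mitochondrial, ribosomal and haemoglobin genes. No test was possible with 1 library per group. The log2 ratio, with a smaller pseudocount than the 5 CPM used here, and the interval of the ratio were run on simulated Poisson counts. The interval assumes such counts, so this checks the code only and not spread between cells or animals. Alternatives covered the mitochondrial limit, doublets, gate, clustering, sex kinds, the highest cell, free RNA, cell weighting, pseudocount, UMI minimum and thinning. Python 3.11.15, scanpy 1.11.5, leidenalg 0.10.2, scikit-learn 1.9.0, scipy 1.17.1, numpy 2.4.6 and matplotlib 3.10.9 were used. Members and lists were chosen with earlier results of these data known. Named were all members, list genes past a log2 ratio of 1, the 5 genes most like each member (at least 100 UMIs), Usp18 and Lyz2. The limit of 50 Arg1 UMIs, the strata of Arg1, the pair Ass1 and Asl, and T or NK cells in place of B cells as the class without Il4i1 or Kmo were chosen after values were seen. GENCODE M21 holds 27645 of the 27998 gene identifiers.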

Additional observations from a re-analysis of the deposited data

Results flagged for a closer look

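Arg1 moved in opposite directions between the libraries in cells of each sex kind, within a class. In macrophages the log2 ratio of CPM + 5, labelled knockout over control, was 1.16 with Xist and -1.35 with Y-linked UMIs. In monocytes it was 0.45 and -2.49. In the library labelled knockout 1 cell held 29.5% of the Arg1 UMIs of Y-linked macrophages, and 1 cell held 42.2% of those of Y-linked monocytes. The ratios over all cells also had opposite signs between classes, at 0.13 in macrophages, -0.81 in monocytes and -0.42 in cDC2. Cells of cluster 1 were lower in the library labelled knockout in both macrophages (2400 and 1874 CPM) and monocytes (4742 and 2135 CPM). Cluster 1 made up 17.6% and 25.0% of the macrophages, and the part of this make-up in the signs was not tested. The cDC2 value rests on 1 control cell with 142 of 315 UMIs, and without the highest cell of each library it was -0.024. The macrophage value turned to -0.23 at a mitochondrial limit of 5%.

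Il4i1 was higher in the library labelled knockout in monocytes (0.57, from 5 and 26 UMIs) and in migratory DC (0.32), and lower in cDC2 (-0.37, from 30 and 19 positive cells, which turned to 0.32 with classes from clustering and 0.11 with Xist). None of these differences between classes or sex kinds was tested, because each group is 1 pool.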

How the results depend on the processing

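Values here are log2 ratios, labelled knockout over control, unless named otherwise. Of the results that answer a comparison, 72 of the alternative values stayed within their interval, 19 moved and 6 reversed. For the other results the numbers were 216, 43 and 6, and the cause was not tested. Cells with Xist gave 1.16 for Arg1 in macrophages and 0.45 in monocytes, 0.43 and -0.017 for Ass1 in monocytes and cDC2, 0.057 and 0.11 for Il4i1 in migratory DC and cDC2, and 0.18 for Kmo in cDC2. Their share differences were 17.6 percentage points for Arg1 in monocytes and -3.58 for Ass1 in cDC2, and control monocytes with Xist had 9.16 times the product for Arg1 with Nos2. Cells with Y-linked UMIs gave -1.35 and -2.49 for Arg1 in macrophages and monocytes, -0.41 and 1.79 for Ass1 in macrophages and cDC2, -0.071 for Il4i1 in migratory DC and 1.36 for Kmo in cDC2. Their Arg1 share differences were -3.37 points in macrophages and -21.0 in monocytes. Classes from clustering gave 0.76 and -0.61 for Arg1 in macrophages and monocytes, and -0.091 and 0.32 for Il4i1 in migratory DC and cDC2. A mitochondrial limit of 5% gave -0.23 and -0.92 for Arg1 in macrophages and monocytes, keeping doublets gave 0.034 in macrophages, and a stricter gate gave -0.72 in monocytes. The mean over cells gave -0.99 for Arg1 in monocytes and 0.52 for Il4i1 in migratory DC. The Ass1 share difference in monocytes was 7.13 points thinned to 4000 UMIs and 7.88 without thinning, and that of Il4i1 in migratory DC was -1.37 thinned to 1000. No paired analysis was possible because each group is 1 library and no test was made. Depth limits Ido1 to upper bounds and Nos2 outside monocytes, macrophages and neutrophils to few cells.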
